A study of Arabidopsis thaliana with 53 samples.

Results

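After 4 h of abscisic acid (ABA), the peak list of wild-type Arabidopsis roots held 994 regions that had no peak in untreated roots or after 45 min or 2 h of ABA, and that did have a peak in untreated guard cells. They were chosen by position alone. A region is a peak of the root 4 h list that shares no base with any peak of the root control, 45 min and 2 h lists and overlaps a peak of the guard cell control list by at least 1 bp. Of the 25604 root 4 h peaks, 2180 were absent from the 3 earlier root lists, a background rate of 8.51%, and 994 of those were open in guard cells while the remaining 1186 were not. The lists of the whole series held 353370 peaks. Because the absence from the earlier root lists and the presence in the guard cell control list made the selection, those values are descriptions and carry no test.

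ABA is the hormone that plants make under drought, and it closes stomata by acting on the pair of guard cells around each pore. PYR/PYL receptors that bind ABA inhibit clade A PP2C phosphatases, which frees SnRK2 kinases to phosphorylate ion channels and the ABF transcription factors. Roots also respond to ABA, with changes in growth, transport and barrier formation. ATAC-seq marks open chromatin through the places where the Tn5 transposase can insert sequencing adapters, so a peak is a stretch of DNA that was accessible in the nuclei used.

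The 53 samples were all of the strain Col-0, and a histone H2B-EGFP marker specific to the cell type let their nuclei be isolated by FACS for the transposase reaction. The promoters that drove the marker are not given in the sources used here. The samples formed 18 groups of 2 to 4, and each group is represented by 1 pooled peak list with no values per sample. Replicates could therefore not be compared, the depth of each sample is unknown, and no test across samples was possible; intervals below are exact (Clopper-Pearson) 95% intervals that treat peaks as independent and cover counting error only.

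The wild-type (WT) root groups were seedling roots moved to plates with vehicle (ethanol, labelled 4 h) or 50 µM ABA for 45 min, 2 h or 4 h. The abf1/2/3/4 quadruple mutant, which lacks 4 ABF factors, was sampled as root with vehicle, with 45 min of ABA and with a further ABA treatment. For that last group the titles say 2 h and the treatment time says 4 h, and it is called the abf1/2/3/4 root 2 h list here by its titles. WT whole seedlings and WT mesophyll each had a vehicle group and a 4 h ABA group. WT guard cells had a vehicle group, ABA groups of 4 h and 24 h, and groups kept for 4 h at 100 or 1000 ppm CO2. The abf1/2/3/4 guard cells had a vehicle group and a 4 h ABA group. For leaf cells the ABA or vehicle was sprayed onto rosettes of mature plants, so roots and guard cells differed in plant age and in the way ABA was given.

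Cell type labels were compared with marker genes, where a marker counted as open if a peak lay inside it or within 1500 bp. All 11 guard cell markers were open in each of the 7 guard cell lists, against 4 in mesophyll and 5 in whole seedlings, with and without ABA. All 10 root markers were open in the root control list, and 8, 9 and 9 were open after 45 min, 2 h and 4 h of ABA. In the guard cell lists 4 to 6 of the root markers were open. The mesophyll markers did not separate the tissues, since 4 to 6 of the 6 were open in every list. Of the guard cell markers, 6 were open in root control, 5 at 45 min, 6 at 2 h and 8 at 4 h. The abf1/2/3/4 root lists had 4, 3 and 4 of them. The additional markers at 4 h were KAT2 and SCAP1, whose peaks belong to the 994 regions. SLAC1, HT1 and TGG1, which are also guard cell markers, had no peak in any WT root list. Whether nuclei of other cell types contributed to the root 4 h list was not tested.

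The 994 regions were weak and narrow peaks of the root 4 h list. Their −log10 p, the strength given by the authors' peak caller, ran from 3.53 to 8.25 with a median of 5.21. In rank they lay between 13643 and 25595 of 25604, with a median rank of 22370. The 1186 gained peaks closed in guard cells had a median −log10 p of 5.15 and reached 10.04, while the 23424 root 4 h peaks that were not gained had a median of 9.09. Restricted to the rank range of the 994 regions, 9793 peaks were not gained and had a median of 6.33. The regions were 99 to 895 bp wide with a median of 210 bp, against 251 bp for the gained peaks closed in guard cells and 293 bp for the peaks of the same rank range that were not gained. Their area score, also the authors' value, ran from 200.1 to 1661.4 with a median of 297.9. Regions at the lower end of this range were among the smallest peaks of the whole list.

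The guard cell peaks under these regions were mostly of modest strength as well, with a long upper tail. The 994 regions lay on 985 distinct guard cell control peaks, whose −log10 p ran from 3.64 to 29.78 with a median of 6.90, against 11.23 for the guard cell peaks under the other root 4 h peaks. The guard cell ranks ran from 36 to 20936 of 20954, with a median of 15120. The summits of the root and guard cell peaks were a median of 8 bp apart, and 600 of 994 (60.4%) were within 20 bp. The same values for the 16120 other root 4 h peaks with a guard cell control peak were 8 bp and 59.6%. Most regions were narrower than their guard cell peak: the median ratio of root to guard cell width was 0.745, against 0.970 for the other shared peaks, and 691 regions (69.5%) lay wholly inside the guard cell peak.

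**Figure D1:**
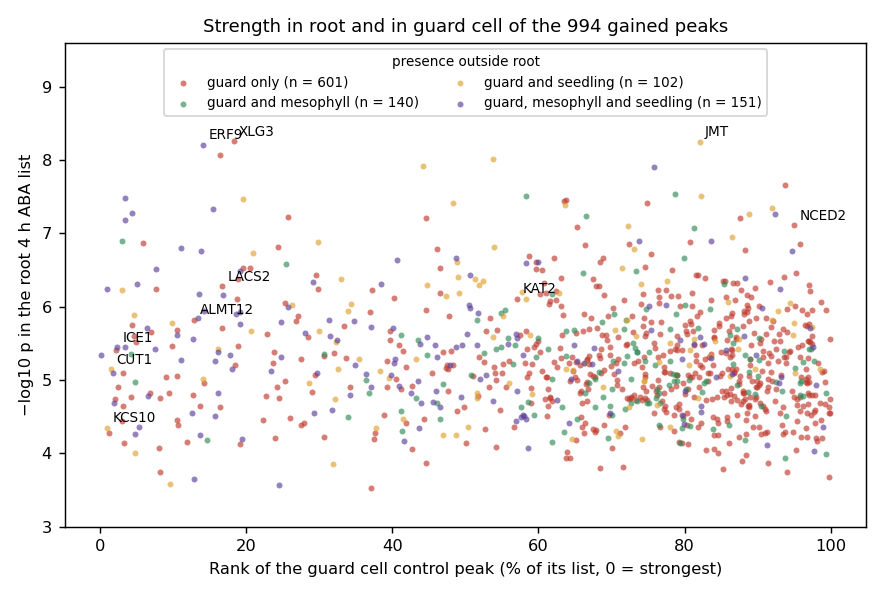
Each point is 1 of the 994 regions, with the rank of its guard cell control peak as a percent of that list (0 is the strongest) on the x axis, its −log10 p in the root 4 h list on the y axis, and colour by the leaf and seedling lists that also hold it. Points crowd at the weak end of the guard cell list, and the root values stay between 3.53 and 8.25 along the whole axis, so that regions such as CUT1 and KCS10 combine a high guard cell rank with root values of 5.15 and 4.35.

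Being open in guard cell control was common among root 4 h peaks in general, with 66.8% of all of them overlapping such a peak. Of the gained peaks 45.6% (43.5% to 47.7%) did, of the peaks not gained 68.8%, and of those in the same rank range 50.7%. The choice of members used this overlap, and nothing is read from it. The smallest overlaps inside the rule were 8 bp near IDL4 (root −log10 p 5.23), 26 bp near ICK3 (4.55) and 59 bp at AT1G76010 (5.06). Just outside it were gained root peaks near TMT2 (5.58), BHLH32 (6.59) and XTH6 (5.83), whose nearest guard cell control peak was 60, 77 and 89 bp away.

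Few regions lay close to a peak of an earlier root list. Whether weaker signal was present at the regions in those groups was not tested. The nearest peak of any earlier root list was 60 to 62786 bp away with a median of 1481 bp. It was within 200 bp for 114 regions (11.5%) and beyond 1000 bp for 592 (59.6%). Taken list by list, the median distance was 1837 bp to the control peaks, 2321 bp to those of 45 min and 1598 bp to those of 2 h. The corresponding medians for the gained peaks closed in guard cells were shorter, at 1237, 1643 and 1024 bp.

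In the other guard cell lists, which the selection did not use, most of the regions were again found. The untreated abf1/2/3/4 guard cell list held 824 (82.9%, 80.4% to 85.2%; all root 4 h peaks 64.0%). At 1000 ppm CO2 850 were found (85.5%; all root 4 h peaks 63.5%) and at 100 ppm 839 (84.4%; all root 4 h peaks 63.0%). The ABA-treated lists held fewer, with 783 after 24 h (78.8%; all root 4 h peaks 64.8%) and 624 after 4 h (62.8%, 59.7% to 65.8%; all root 4 h peaks 62.3%). The abf1/2/3/4 guard cells with 4 h of ABA held 726 (73.0%; all root 4 h peaks 63.1%). That these shares exceed those of the gained peaks closed in guard cells, which were 1.69% to 8.60%, follows from the choice of regions open in the guard cell control list. Another set for comparison is the 4969 root 4 h peaks of the same rank range that were not gained and also had a guard cell control peak. Of those 73.5% were found in guard cells after 4 h of ABA, 82.7% after 24 h and 90.2% in untreated abf1/2/3/4 guard cells, each above the share of the 994 regions and outside its interval. These peaks were stronger in root, and at like root strength the shares after 4 h of ABA were closer. They were 57.2% of the regions and 63.5% of that set below a −log10 p of 5. Between 5 and 6 they were 63.6% and 65.8%, and at 6 or more 73.4% and 77.4%. The strength of the guard cell peaks was not matched.

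Under ABA in guard cells, regions were more often missing at 4 h than at 24 h. Of the 994, 598 were in both lists, 185 in the 24 h list only and 26 in the 4 h list only. The 4 h list was also the shorter of the pair, with 17891 peaks against 19239. The CO2 levels divided the regions more evenly, with 768 in both lists, 71 at 100 ppm only and 82 at 1000 ppm only. In abf1/2/3/4 guard cells 657 regions were in both lists, 167 in the vehicle list only and 69 in the ABA list only. All 7 guard cell lists held 486 regions (48.9%; all root 4 h peaks 53.2%), 6 lists held 160, 5 held 120, 4 held 94, 3 held 64, 2 held 40, and 30 regions (3.02%) were in the guard cell control list alone. The 5 WT guard cell lists together held 528.

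The selection required a guard cell control peak, so a lower share in mesophyll than in guard cell lists was fixed by it. The mesophyll control list held 259 (26.1%, 23.4% to 28.9%; all root 4 h peaks 50.7%) and the mesophyll ABA list 245 (24.6%, 22.0% to 27.5%; all root 4 h peaks 50.5%). Among the peaks of the same rank range that were not gained and were open in guard cells, these shares were 48.0% and 42.3%. That set was stronger in root, with a median −log10 p of 6.68 against 5.21, but the order was the same at like root strength. With a −log10 p below 5 mesophyll control held 24.8% of the regions and 41.1% of that set, between 5 and 6 29.4% and 42.8%, and at 6 or more 20.1% and 50.6%. Against all peaks not gained of the same rank range, open in guard cells or not, the order differed with strength, at 19.7%, 25.8% and 37.0% for those 3 classes. Among the gained peaks closed in guard cells they were 5.90% and 8.68%. The same regions made up most of both mesophyll counts, with 213 in both lists, 46 in the control list only and 32 in the ABA list only. The mesophyll lists are shorter than the guard cell control list, at 15928 and 15345 peaks against 20954. The strength of the guard cell peaks was not matched in these comparisons. With all guard cell control peaks divided by rank into 4 classes of equal size, mesophyll control held 88.6% of the strongest class and 26.0% of the weakest.

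Whole seedlings, which contain roots as well as leaves, held fewer of the regions than mesophyll or guard cells did. A further set met the rule when every list was cut to its 15000 highest-ranked peaks, mostly peaks not among the 994. For that set the order of the seedling and mesophyll ABA lists was opposite. The seedling control list held 174 (17.5%, 15.2% to 20%; all root 4 h peaks 57.3%) and the seedling ABA list 208 (20.9%, 18.4% to 23.6%; all root 4 h peaks 59.5%). The shares were 48.3% and 47.7% among the peaks not gained of the same rank range with a guard cell peak, and 5.40% and 7.76% among gained peaks closed in guard cells. Both seedling lists held 129 regions, the ABA list alone 79 and the control list alone 45. The seedling lists come from 2 samples each and held 16480 and 16891 peaks. In bulk material such as seedlings, fewer cells of a type and less open chromatin per cell cannot be told apart.

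Among the regions, strength in root moved with presence in seedlings more than with presence in mesophyll. Among the 383 regions with a −log10 p below 5, 15.1% were in the seedling ABA list, and among the 169 regions with 6 or more 34.3% were. For mesophyll with ABA these shares were 22.5% and 23.1%, and for mesophyll control 24.8% and 20.1%. For guard cells after 4 h of ABA they were 57.2% and 73.4%. A rise in the seedling ABA list was not particular to the regions. Among the peaks not gained of the same rank range with a guard cell peak, that list held 24.5% and 56.5%. Mesophyll with ABA held 30.5% and 46.2% of that set, and mesophyll control 41.1% and 50.6%. Of the gained peaks closed in guard cells the seedling ABA list held 5.91% and 12.0%. Other shares were seen when the lists were cut first and the rule was applied to what remained, which gave partly other peaks. With only the 15000 highest-ranked peaks of each list, 385 peaks met the rule, and 62.9% of them were in the seedling ABA list. Mesophyll with ABA held 43.6% and mesophyll control 40.0%. Most of the 385 were not among the 994, whose region near AT5G62580, among the 20 strongest in root, already ranked 15149. With only peaks of −log10 p 5 or more in every list, 837 peaks met the rule and 8.72% were in the seedling ABA list. Of the 994 regions, 383 lay below that limit.

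Few of the regions were listed in roots of the abf1/2/3/4 mutant, which the selection largely fixed, since every region had to be absent from WT root with vehicle, 45 min and 2 h of ABA. The untreated mutant root list held 15 (1.51%, 0.847% to 2.48%; all root 4 h peaks 69.9%), the 45 min list 11 (1.11%; all root 4 h peaks 66.4%) and the 2 h list 1 (0.101%, 0.00255% to 0.559%; all root 4 h peaks 64.4%). At least 1 of the 3 mutant root lists held 22 regions (2.21%). The gained peaks closed in guard cells were rare there too, with 2.95%, 1.85% and 0.253% in the 3 lists and 43 of 1186 (3.63%) in at least 1 of them. Of the peaks not gained of the same rank range, 50.9%, 44.0% and 40.2% were found, and each of those peaks is by definition in at least 1 of the 3 earlier WT root lists. By its titles no mutant root list is of 4 h of ABA, although the treatment time of the last one says 4 h, and whether the regions depend on the ABF factors was not tested. The mutant root lists are also short, with 19277, 18116 and 17705 peaks against 25604 in WT at 4 h. With the rule applied to the 15000 highest-ranked peaks of each list, the share in untreated mutant root was 14.0%, mostly over peaks not among the 994. With peaks of −log10 p 5 or more it was 0.358%, over a set that also held other peaks. The effects of the genotype, of the selection and of list length cannot be told apart.

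**Figure D2:**
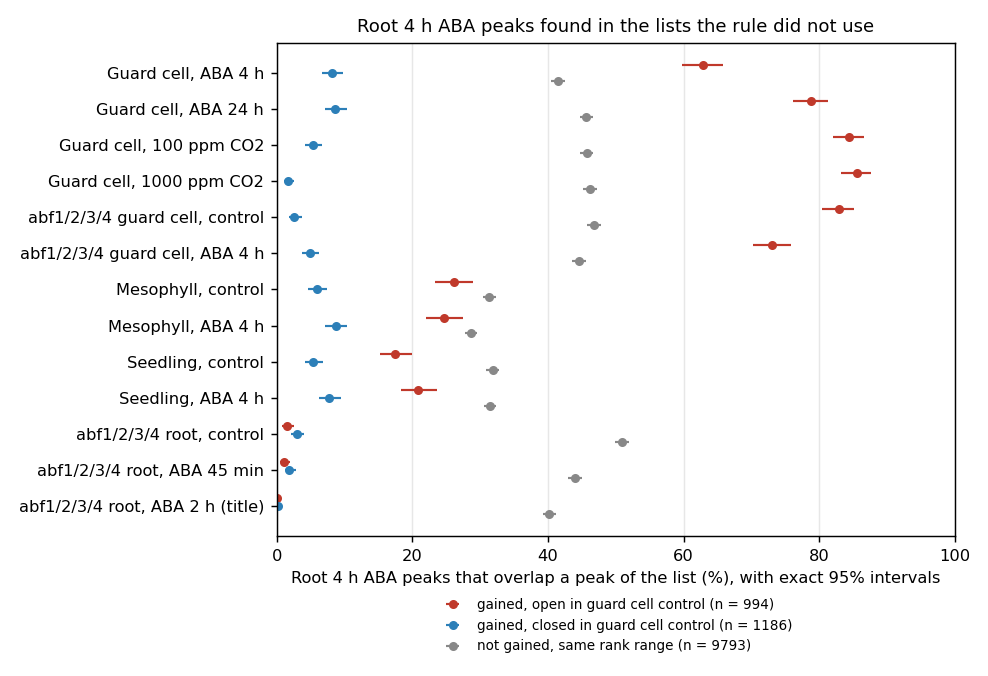
For each list that the selection did not use, the x axis gives the percent of root 4 h peaks that overlap a peak of that list, with exact 95% intervals, for the 994 regions (red), the 1186 gained peaks closed in guard cells (blue) and the 9793 peaks of the same rank range that were not gained (grey). The red points lie at 62.8% to 85.5% in guard cell lists, at 17.5% to 26.1% in mesophyll and seedling lists, and at 1.51% or less in abf1/2/3/4 root lists, where the grey points lie at 40.2% to 50.9%; presence in guard cell control and absence from earlier WT root lists were part of the selection.

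By their presence outside root, 601 of the 994 regions (60.5%) were found in guard cell lists but in no mesophyll or seedling list, where 31.5% of all root 4 h peaks were in no such list. In the set of 4969 peaks not gained, with a guard cell peak and of the same rank range, this share was 29.8%. At like root strength it was 64.8% of the regions and 47.7% of that set below a −log10 p of 5. Between 5 and 6 it was 59.3% and 41.8%, and at 6 or more 53.8% and 23.5%. The strength of the guard cell peaks was not matched between the regions and that set. A further 140 (14.1%) were in a mesophyll list but no seedling list, 102 (10.3%) in a seedling list but no mesophyll list, and 151 (15.2%) in both kinds, against 12.7%, 18% and 39.5% of that set. Of the regions seen in guard cells and in neither mesophyll nor seedlings, 232 were in all 7 guard cell lists, which is 23.3% of the 994 and compares with 12.6% of that set. Below a −log10 p of 5 these last shares were 22.2% (18.1% to 26.7%) and 19.7% (16.2% to 23.5%), with overlapping intervals.

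A related count can be made from the guard cell side, over a set that is not the same as the 994 regions. It leaves out guard cell peaks that overlap an earlier root peak anywhere along their width, as at RAB18. The 994 regions lay on 985 guard cell peaks. Of the 20954 guard cell control peaks, 4253 had no peak in the 3 earlier root lists, and 923 of these (21.7%, 20.5% to 23.0%) had one in root at 4 h. With the guard cell list divided by rank into 4 classes of equal size, from strongest to weakest, the shares were 15.3% (48 of 313), 22.2% (120 of 541), 25.3% (281 of 1110) and 20.7% (474 of 2289). Among these 4253 peaks the strongest class was therefore not the one found most often. The 923 found in root were more often still listed in ABA-treated guard cells than the 3330 not found, with 59.5% against 45.6% at 4 h and 77.1% against 57.6% at 24 h. Among all guard cell control peaks these shares were 79.2% and 85.0%. The order of found over not found was the same in each rank class. In the weakest class 35.9% against 25.8% were listed at 4 h and 61.4% against 38.3% at 24 h, and in the strongest 97.9% against 95.8% and 100% against 97.7%. Over all rank classes together, the same order was seen in the other guard cell lists and in the mesophyll and seedling lists. The shares were 83.4% and 73.0% in guard cells at 1000 ppm CO2, 83.3% and 77.9% at 100 ppm, 81.6% and 75% in untreated abf1/2/3/4 guard cells and 70.5% and 56.2% in those with ABA. They were 24.7% and 21.4% in mesophyll control, 23.4% and 17.0% in mesophyll with ABA, 16.3% and 11.4% in seedling control and 19.7% and 9.55% in seedlings with ABA.

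**Figure D3:**
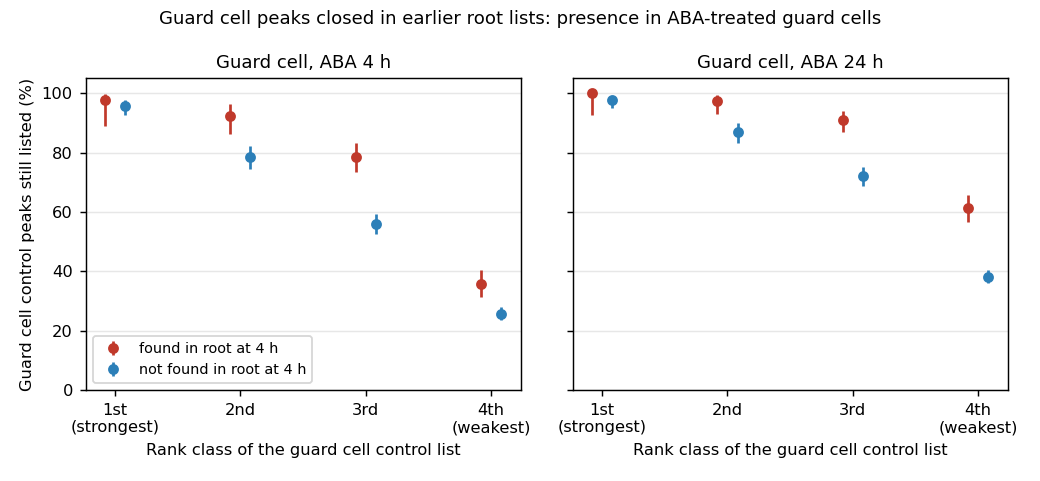
Percent of guard cell control peaks without an earlier root peak that were still listed in guard cells after 4 h (left) and 24 h (right) of ABA, by rank class of the guard cell control list, for peaks found in root at 4 h (red) and not found (blue), with exact 95% intervals. The red point lies above the blue one in every rank class, and in the strongest the intervals overlap.

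Peaks that belonged to 1 untreated leaf cell type were followed through the root lists, for guard cells and for mesophyll. The guard cell values rest on the same overlaps as the selection of the 994 regions and were computed with those known, so they are a description and support nothing about the regions. Of the 3693 guard cell control peaks with no counterpart in the root, mesophyll and seedling controls, 84 (2.27%, 1.82% to 2.81%) had a peak in root after 45 min of ABA, 515 (13.9%) after 2 h and 1042 (28.2%, 26.8% to 29.7%) after 4 h. Of the 939 mesophyll control peaks with no counterpart in the root, guard cell and seedling controls, 14 (1.49%), 95 (10.1%) and 84 (8.95%, 7.20% to 11%) did. In the abf1/2/3/4 roots the guard cell set was found at 2.25% in vehicle, 1.90% at 45 min and 0.433% in the 2 h list, and the mesophyll set at 3.09%, 2.77% and 0.958%. The WT root lists held 19885, 27514 and 25604 peaks at 45 min, 2 h and 4 h, and the part of list length in these shares was not tested. Within the guard cell set the 4 h share was 26.1%, 26.5%, 33.1% and 26.6% from the strongest to the weakest rank class. With both sets defined anew from the 15000 highest-ranked peaks of each list, the 4 h shares were 12.6% for the guard cell set and 5.42% for the mesophyll set. At 2 h they were 8.91% and 5.11%, and at 45 min 5.05% and 2.98%. With the sets defined anew from peaks of −log10 p 5 or more, the mesophyll set was found at 0.703% at 45 min. These time points share the root control list through the definition of both sets.

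**Figure D4:**
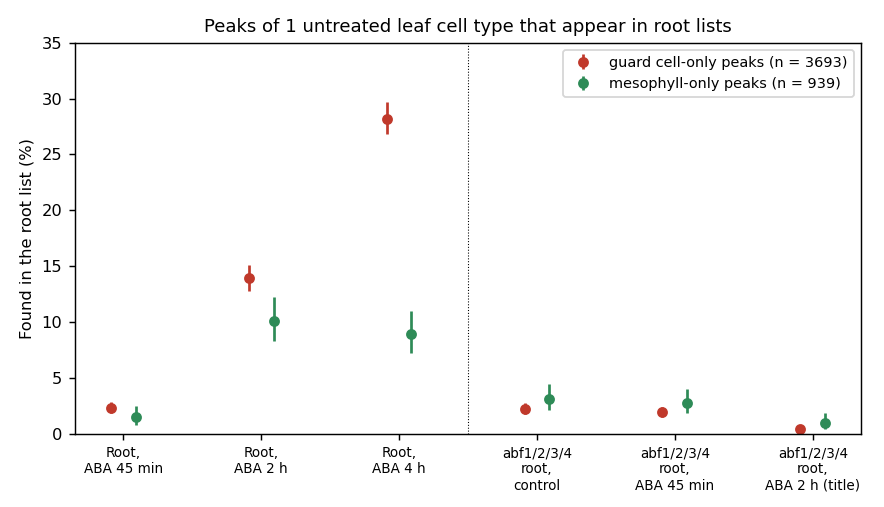
Percent of the 3693 guard cell-only peaks (red) and the 939 mesophyll-only peaks (green) of untreated plants that overlap a peak of each ABA-treated WT root list (left of the dotted line) and of each abf1/2/3/4 root list (right), with exact 95% intervals. The red points go from 2.27% at 45 min to 28.2% at 4 h, the green ones are at 10.1% at 2 h and 8.95% at 4 h, and no point of the mutant lists exceeds 3.09%.

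Most regions lay inside genes or near gene ends, as root 4 h peaks did in general. Summits of 408 (41.0%, 38.0% to 44.2%; all root 4 h peaks 35.2%) were inside a protein-coding gene, 487 (49.0%; all root 4 h peaks 48.7%) were outside but within 1 kb of a gene end, and 99 (9.96%; all root 4 h peaks 16.1%) lay elsewhere. Of the gained peaks closed in guard cells, 27.0% were inside genes and 28.2% elsewhere. Within 150 bp of a gene end were 584 of the 994 summits (58.8%, 55.6% to 61.8%), against 28.9% of the gained peaks closed in guard cells, 41.5% of all root 4 h peaks and 52.4% (51.0% to 53.8%) of the peaks not gained of the same rank range with a guard cell peak. In the last set 44.7% were inside genes and 9.94% elsewhere. Between the 994 regions and that last set, the intervals overlapped for the share inside genes and did not overlap for the share within 150 bp of a gene end. Whether the ends were starts or stops of genes is not known, because the gene table gives no strand.

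By chromosome there were 235 regions on chromosome 1, 139 on chromosome 2, 208 on chromosome 3, 140 on chromosome 4 and 272 on chromosome 5. The share on chromosome 5 was 27.4% (24.6% to 30.3%), against 23.8% of all root 4 h peaks. It was 20.8% (19.7% to 21.9%) of the peaks not gained of the same rank range with a guard cell peak. Of the gained peaks closed in guard cells it was 30.4%. Of the 994 regions 127 (12.8%) had another within 5000 bp. The nearest genes numbered 962, of which 28 had 2 regions and 2 had 3. These last were chosen after their values were seen. KNAT4, a KNOX homeobox factor, had regions at chr5:3509594-3509801 (root −log10 p 7.18), chr5:3510049-3510284 (5.45) and chr5:3513504-3513642 (5.92). AT5G38010 was nearest to 3 regions that lay more than 4 kb from it.

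A region inside or within 1500 bp was found for 1540 of 27432 protein-coding genes (5.61%), and a gained peak closed in guard cells for 1422 (5.18%). The counts below, for 172 genes in 13 lists by role, are read against that rate. In all 13 lists together 13 of 172 genes had such a region. In the 6 lists of ABA genes it was 6 of 71, while 8 of the 71 had a gained peak closed in guard cells. With the regions within 200 bp of an earlier root peak left out, the count of 6 became 3. With the rule applied to the 15000 highest-ranked peaks of each list, which gave a mostly different set of peaks, it was 2. With the rule applied to peaks of −log10 p at least 5, a partly different set, it was 8. With gene windows of 500 and 3000 bp it was 4 and 9.

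Among the 33 core ABA signalling genes 2 had a region, a share near that of all genes. None of the 14 ABA receptors did, although 13 of them had some root 4 h peak. Of the 9 clade A PP2C genes only HAB2, which encodes a phosphatase that blocks SnRK2 kinases, had one, at chr1:6038630-6038965, 1376 bp outside the gene and closer to HLL. Its −log10 p was 6.58 in root and 13.9 in guard cell control, and both mesophyll lists held it. Of the 3 ABA-activated SnRK2 kinases SNRK2.2 had a region inside the gene, 54 bp from its end, at chr3:18744043-18744158 with 5.58 in root and 8.88 in guard cell control. It was in all 7 guard cell lists and both mesophyll lists, and in no seedling or mutant root list. None of the 7 ABF and ABI transcription factor genes had a region.

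Of the 13 genes of ABA synthesis and breakdown, NCED2 had a region. It encodes a 9-cis-epoxycarotenoid dioxygenase, the enzyme family that makes the ABA precursor xanthoxin. The peak was at chr4:10140819-10141243, 1142 bp outside the gene, and ranked 16550 in root with a −log10 p of 7.11. In guard cells it was listed with 4.56 in control, 5.92 after 24 h of ABA, 4.89 at 100 ppm and 3.91 at 1000 ppm CO2. The region had no peak in guard cells after 4 h of ABA, in either abf1/2/3/4 guard cell list, or in any mesophyll, seedling or mutant root list. This holds for the region only. Other peaks inside the gene or within 1500 bp of it were present in those guard cell lists, mesophyll control, both seedling lists, the mutant root lists and the earlier WT root lists. A root 2 h peak lay within 200 bp of the region. NCED2 thus combined a comparatively high root rank with a guard cell peak near the bottom of its list, at rank 19912.

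Of the 25 ABA- and stress-responsive genes 3 had a region. RAB18, a dehydrin used as an ABA marker, had its region at chr5:26517720-26517925, 396 bp outside the gene and closer to AT5G66390, with a −log10 p of 4.84 in root. The guard cell peaks that overlap it had 13.14 in control, 22.13 after 4 h and 26.23 after 24 h of ABA, 26.8 at 100 ppm and 12.58 at 1000 ppm CO2. In abf1/2/3/4 guard cells one was listed with ABA (10.69) but not with vehicle, and no mesophyll, seedling or mutant root list had one. These wide guard cell peaks run into the gene, where other root peaks were present in the control list already, as the map of the loci shows. Values of different lists are set side by side here and are not on a common scale, and each belongs to the whole guard cell peak that overlaps the region.

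COR15A, which encodes a protein that protects chloroplast membranes in the cold, had its region inside the gene at chr2:17712050-17712379, with 5.49 in root. In guard cells the values were 5.77 in control, 15.11 after 4 h and 13.82 after 24 h of ABA, 5.05 at 100 ppm and 6.24 at 1000 ppm CO2, and in abf1/2/3/4 guard cells 4.65 with vehicle and 9.05 with ABA. Mesophyll had a peak there with ABA (10.01) but not in control, and seedlings likewise with ABA (5.51) only. The peaks behind these values differ in extent, so the values cannot be read as a change at the region. The guard cell control peak overlapped 102 bp of the 330 bp region, with its summit 227 bp away. Guard cell peaks in control, at 100 ppm and in abf1/2/3/4 with vehicle did not reach the root summit. Those with ABA and at 1000 ppm did. By any overlap, the COR15A region was thus listed in the 4 h ABA lists of root, mesophyll and seedling, in none of their control lists, and in every guard cell list. Its absence from root control was part of the selection. Mesophyll control had another peak inside the neighbouring COR15B, within 1500 bp of COR15A. RD20, a caleosin of lipid droplets, had a region 119 bp outside the gene at chr2:14144647-14144799, inside AT2G33370, with 5.09 in root, 5.54 in guard cell control and a peak in all 7 guard cell lists but no mesophyll or seedling list.

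The list with the most genes was that of guard cell and stomatal genes, of which 5 of 24 had a region and none had a gained peak closed in guard cells. The list was chosen with the guard cell data in view and its genes are mostly open in guard cells, 22 of 24 in control, so the count is a description. SCAP1, a DOF transcription factor required for guard cell maturation, had a region near each of its ends. The first was at chr5:26210895-26211789, 115 bp outside the gene and at 895 bp the widest of the 994, with 5.88 in root. Guard cells had 9.99 there in control, 7.84 after 4 h and 11.75 after 24 h of ABA, 11.21 at 100 ppm, 9.12 at 1000 ppm CO2, and 7.07 and 7.7 in abf1/2/3/4 with vehicle and ABA. The second SCAP1 region lay inside the gene, 58 bp from its end, at chr5:26212976-26213268 with 5.75 in root. Guard cells had 21.5 there in control, 5.28 after 4 h and 22.81 after 24 h of ABA, 20.54 at 100 ppm, 18.81 at 1000 ppm CO2, and 8.41 and 6.4 in abf1/2/3/4. The peaks behind these values differ in extent, so the values cannot be read as a change at the region. In control it was a single peak of 3012 bp whose summit lay 2446 bp away, and at 24 h and both CO2 levels it was 3037 to 3097 bp wide. After 4 h of ABA and in both abf1/2/3/4 lists the same stretch was divided, and the peak over the region was 338 to 390 bp wide. A further region at chr5:26208479-26209120, nearest to AT5G65580, had 8.06 in root and was the fourth strongest of all. No mesophyll, seedling or mutant root list had a peak at any of the 3, nor did the earlier root lists.

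KAT2, an inward potassium channel subunit of guard cells, had a region 36 bp outside the gene at chr4:10118559-10118742, with 6.11 in root. The guard cell values were 8.72 in control, 7.01 after 24 h of ABA, 8.26 at 100 ppm, 8.16 at 1000 ppm CO2, and 6.87 and 4.85 in abf1/2/3/4 with vehicle and ABA. WT guard cells after 4 h of ABA had no peak there, and neither did any mesophyll, seedling or mutant root list. ALMT12, the R-type anion channel that releases malate during stomatal closure, had a region 1110 bp outside the gene at chr4:9974159-9974325, with 5.82 in root and 17.33 in guard cell control. It was in all 7 guard cell lists and in no mesophyll, seedling or mutant root list. The KAT2, ALMT12 and both SCAP1 regions thus had peaks in guard cells and in root at 4 h alone. This holds for the region only at ALMT12. Other peaks inside that gene or within 1500 bp of it were present in the earlier WT root lists and in the mesophyll and seedling lists.

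ICE1 and PHOT1 were open more widely. ICE1, a bHLH factor of stomatal development and the cold response, had a region 16 bp outside the gene at chr3:9835217-9835393. Its value was 5.45 in root and 23.47 in guard cell control, with 4.75 and 5.29 in mesophyll and 4.05 and 5.03 in seedlings for control and ABA. PHOT1, a blue light receptor that promotes stomatal opening, had a region inside the gene at chr3:16817464-16817722 with 5.39 in root and 16.27 in guard cell control. Both mesophyll lists and both seedling lists held it.

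Of 17 cuticle genes CUT1 and LACS2 had a region, and none had a gained peak closed in guard cells. CUT1, a fatty acid elongase for wax, had 5.15 in root and 24.8 in guard cell control (rank 309) at chr1:25715142-25715260, 188 bp outside the gene. LACS2, an acyl-CoA synthetase for cutin, had 6.28 in root and 16.07 in guard cell control at chr1:18290593-18291028, 123 bp outside the gene, and no mesophyll or seedling list held it. The 7 suberin genes had no region, while 3 of them had a gained peak closed in guard cells. The lists of 17 root genes, 18 photosynthesis genes, 11 clock genes and 7 immune genes had no gene with a region. All but 1 of the guard cell and cuticle genes with a region were in each of the 7 guard cell lists, the exception being KAT2.

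**Figure D5:**
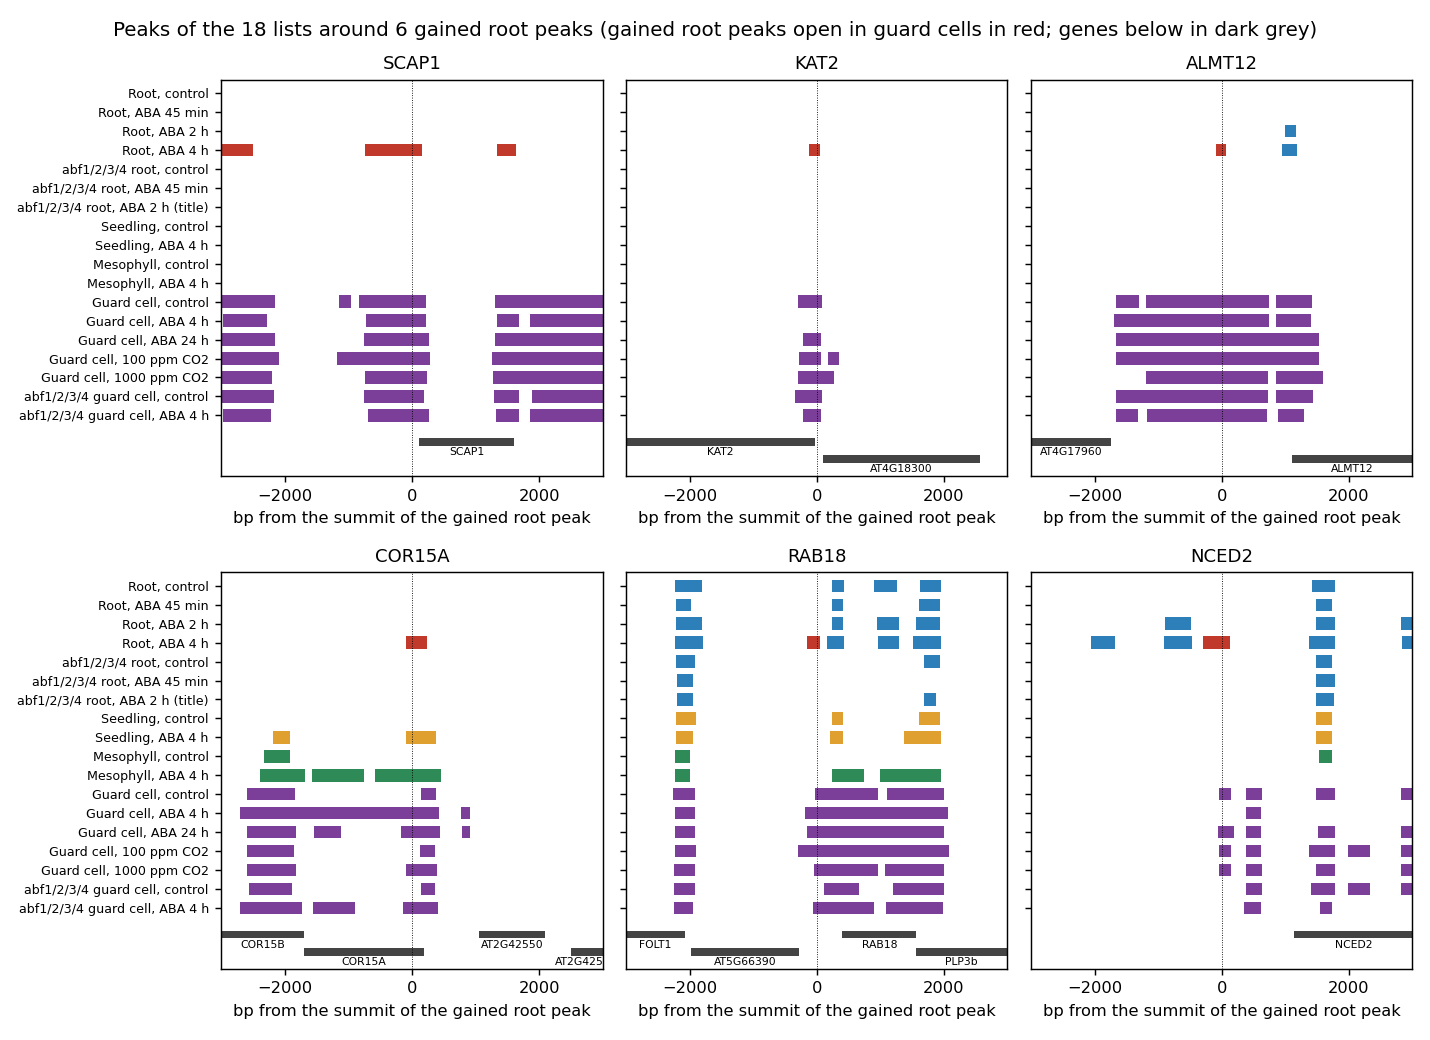
Peaks of the 18 lists within 3000 bp of 6 of the regions, with the distance from the summit of the root peak on the x axis, 1 row per list and protein-coding genes in dark grey at the bottom. The regions are red, other root peaks blue, seedling peaks orange, mesophyll peaks green and guard cell peaks purple; at SCAP1 and KAT2 only root at 4 h and guard cells have peaks, while at COR15A the ABA lists of seedling and mesophyll have one over the red peak and their control lists do not.

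The 20 strongest regions in root had a −log10 p of 7.34 to 8.25. All 20 were absent from the abf1/2/3/4 root lists, 17 were in guard cells after 4 h of ABA, 11 were in all 7 guard cell lists, 12 in a seedling list and 6 in a mesophyll list. Only 2.21% of the 994 were in any mutant root list, which the selection largely fixed. Guard cells after 4 h of ABA held 62.8% of the 994 and 62.3% of all root 4 h peaks. All 7 guard cell lists held 48.9% of the 994 and 53.2% of all root 4 h peaks. The strongest was 138 bp from XLG3, an extra-large G protein, at chr1:11469140-11469503 with 8.25 in root and 15.64 in guard cell control, and it was in all 7 guard cell lists and no mesophyll or seedling list. JMT, a jasmonic acid methyltransferase, had a region at chr1:6788558-6788979 with 8.25 in root, 5.84 in guard cell control and 4.74 in seedlings with ABA. It was in 3 guard cell lists and missing from both WT ABA lists. Among transcription factor genes, ERF9 had a region 111 bp from the gene at chr5:17807565-17807750 with 8.21 in root, 16.9 in guard cell control, 8.08 in mesophyll control and 6.02 in seedling control.

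ERF38 had a region at chr2:15004928-15005115 with 7.53 in root and 6.20 in guard cell control, and was found in mesophyll control (4.83) but not in mesophyll with ABA. NAC071, a NAC factor gene, was the nearest gene to a region at chr4:9981944-9982401, 1803 bp away, with 7.41 in root and 6.61 in guard cell control. ATG6, an autophagy gene, had 7.51 in root, 8.57 in guard cell control, 7.4 in mesophyll control and 7.98 in mesophyll with ABA at chr3:22842492-22842609. Regions near or inside ADK1, MAPKKK7, ASHH3 and FATB, which encode an adenosine kinase, a MAP kinase kinase kinase, a SET-domain protein and an acyl-ACP thioesterase, had root values of 7.46, 7.44, 7.38 and 7.34. The other 10 had no gene symbol in the table. They included AT5G12950, with 7.48 in root and the strongest guard cell peak of the 20, 22.26.

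The 5 regions with the strongest guard cell peaks had a root −log10 p of 4.28 to 6.24, within the 3.53 to 8.25 of the 994. Their guard cell peaks were wide, and the guard cell value belongs to the whole peak. AT1G21000 had 29.78 in guard cell control (rank 36) and 5.34 in root, and in mesophyll it had 4.53 in control and 14.59 with ABA. AT3G51670 had 25.98 and 6.24, with its guard cell summit 2483 bp away in a peak of 4635 bp. KCS10, a fatty acid elongase gene, had 25.87 and 4.35, ABCB13, an ABC transporter gene, 25.3 and 4.28, and the last was CUT1. All 5 were in each of the 7 guard cell lists, which their choice by guard cell rank largely fixed. Of all guard cell control peaks in the strongest of 4 rank classes, each other guard cell list held 99.4% to 100%. At ABCB13, guard cells had 4.7 after 4 h and 5.83 after 24 h of ABA, with 19.9 and 23.77 at 1000 and 100 ppm CO2, where the first were peaks of 270 and 318 bp and the last of 1583 and 1721 bp. No mutant root list held any of the 5.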

How the data were processed

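ATAC-seq peak lists of 18 groups (53 samples) were used, 1 pooled list per group, and 0 columns gave values per sample. The way samples were pooled into a list is not given in the sources used here. The submitters' processing notes name TAIR10, Trim Galore 0.6.5, Genrich and bedtools 2.30 among other tools, without roles. The −log10 p of each peak and its area score were deposited by the authors and were used only to describe, rank or filter peaks within a list. Overlaps were computed with Python 3.11.15 and numpy 2.4.6, by a script tested on simulated data, with a minimum of 1 bp. Coordinates are given as 1-based, and each start is 1 higher than in the deposited list. Gene names and distances to gene ends come from a RefSeq table of TAIR10.1, which has neither strand nor exons; a gene end was within 150 bp for 41.5% of root 4 h summits, and for 13.1% and 13.4% when all summits were shifted by 5000 bp to the left and right. Genome sequence was not used, so the planned motif comparison was not run.

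The regions and gene lists were chosen with earlier results of these data known. Named genes are those of the 20 strongest regions in root, the 5 with the strongest guard cell peak, every region within 1500 bp of a listed gene, and the 3 nearest to the limit of the rule on each side. Alternatives were a 50% overlap, summit overlap, a −log10 p of at least 5, the 15000 highest-ranked peaks, a 200 bp distance from earlier root peaks, presence in all 5 WT guard cell lists and other gene windows. The comparison of guard cell-only and mesophyll-only peaks, and that with peaks of the same rank range, were added after seeing the data.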

Additional observations from a re-analysis of the deposited data

How the results depend on the processing

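Of 77 alternative values 48 stayed within their interval or within 1.5 times the count and 29 moved; the cause was not tested. Requiring overlap of 50% of the shorter peak or of the summit moved none. Lists were cut before the rule was applied, so the peaks that met it were in part others than the 994. With a −log10 p of at least 5 in every list, 837 peaks met the rule, 42.7% of the gained peaks. Of the 837, 73.0% were in untreated abf1/2/3/4 guard cells, 0.358% in untreated abf1/2/3/4 root and 51.6% in guard cells after 4 h of ABA. Mesophyll with ABA and in control held 19.6% and 22.8%, and seedlings with ABA 8.72%. Guard cell-only peaks were then found in root at 1.5% (45 min) and 16.5% (2 h), and mesophyll-only peaks at 0.703% (45 min) and 11% (4 h). With the 15000 highest-ranked peaks of each list 385 regions remained to be counted, 42.6% of the gained peaks, with 2 listed ABA genes and 32.5% inside genes; 89.1% were in untreated abf1/2/3/4 guard cells, 14.0% in untreated abf1/2/3/4 root, 84.2% in guard cells after 4 h of ABA, 43.6% and 40.0% in mesophyll with ABA and in control, and 62.9% in seedlings with ABA. Guard cell-only peaks were then found in root at 5.05%, 8.91% and 12.6% (45 min, 2 h and 4 h) and mesophyll-only peaks at 2.98%, 5.11% and 5.42%. The count of 6 listed ABA genes was 8 with a −log10 p of at least 5, and 4 and 9 with gene windows of 500 and 3000 bp. Without earlier root peaks within 200 bp 3 listed ABA genes had a region, and 528 regions were open in all 5 WT guard cell lists. No paired analysis was possible because each group has 1 pooled list, and for the same reason no replicate could be left out.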
